A study of Mus musculus with 768 samples.

Results

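The genes described here are 5 genes of compact myelin, Pmp22, Mbp, Mal, Pmp2 and Cd9, followed in single Schwann cells (SCs) of the mouse sciatic nerve. They were chosen by name, and all 5 were found among the 25700 genes of the count table. Myelin is SC membrane wrapped around an axon many times and pressed together until little cytoplasm remains. Compact myelin depends on a small set of very abundant proteins. Pmp22, a tetraspan protein, sits in the membrane, and Mbp and Pmp2 lie between the cytoplasmic faces. Mal and Cd9 are also membrane-spanning proteins, Mal linked to lipid rafts and apical transport and Cd9 a tetraspanin. The dose of Pmp22 matters in people, since extra or missing copies of the gene cause common inherited neuropathies. Remak SCs hold several thin axons each and make no myelin.

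The cells came from mice at postnatal day 60 that carried 3 transgenes, a Cre recombinase active in the Schwann cell lineage, a Cre-dependent eYFP reporter and DsRed under a beta-actin promoter. All cells therefore shared 1 genotype and no treatment, and the reporter marks cells in which Cre has been active at some time. Single eYFP-positive cells were sorted into 2 plates of 384 wells, each plate filled from a separate pool of male and female mice in equal parts, and Smart-Seq2 libraries were made, which read along the whole transcript and count reads and not molecules. The plate is the biological replicate (n = 2), and cells are not replicates.

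Of the 768 cells, 340 of plate 1 and 334 of plate 2 had 1500 or more detected genes and were kept. The plates held 74280540 and 209404659 reads in genes, and a kept cell had a median of 158689 and 452484 reads and of 3442 and 2295 detected genes. Clusters were built without the 5 genes and without 27 relatives of theirs, and were named from markers. The mSC-like class (myelinating, named from Prx, Mag, Egr2 and 6 further genes) held 148 and 74 cells, with all 9 of its markers at 10 CPM (counts per 1000000 reads in genes) or more in both plates. The nm(R)SC-like class (non-myelinating, Remak, named from Scn7a, Gfap, Cdh2 and 8 further genes) held 176 and 246 cells, with 10 of 11 markers at that level. A cluster of 16 and 14 cells led by cell-cycle genes stayed unnamed. No well name was shared by the plates and no 2 cells had the same counts. Markers of other cell types were low: the summed level of 5 endothelial markers was 0.386 to 37.3 CPM in the 4 sums of plate and class, that of 5 immune markers 10.7 to 23.01 CPM, and that of 3 oligodendrocyte markers 0 to 1.89 CPM, with Mog at 0 in all 4 sums. The fibroblast list reached 641 CPM, of which Col1a1 made up 641.1 CPM and the 4 other genes, Pdgfra among them, less than 1 CPM, and the perineurial list reached 324 CPM, mostly Itgb4 (302.5 CPM). The part of Col1a1 and Itgb4 in the results was not tested.

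None of the 5 genes had hardly any counts. The numbers of cells given here include reads exchanged between wells, which are described further on. Subtraction of such reads in plate 1 lowered the number of cells with a read, in both classes, for all 5 genes. Pmp22 had 5969876 reads in the table and at least 1 in each of the 768 cells, and Mbp had 2895669 reads and was missed in 1 cell. Cd9 had 1771858 reads (7 cells without) and Mal 704791 (5 cells without). Pmp2 was the rare gene of the group, with 40361 reads and 382 cells without any. The reads of Pmp2 are also the only ones of the group that the annotation does not assign to a single gene. Its exons 2, 3 and 4 are also exons of Gm37389, a gene model on the same strand that starts upstream of Pmp2, and the 2 genes share 1224 of the 1408 exonic bases of Pmp2. Gm37389 had 92.2% as many reads as Pmp2, never more than Pmp2 in any of the 768 cells and never a read without one of Pmp2, and the reads of the 2 genes cannot be told apart. Of the 396 coding bases of Pmp2 (GENCODE M21 on GRCm38, chromosome 3, minus strand, between 10180753 and 10183819), the first 150 are shown because they hold the border of the shared part. The 73 bases in capitals, the coding part of exon 1, are outside Gm37389, and the bases in lower case lie in exons of both genes.
Pmp2 coding bases 1 to 150: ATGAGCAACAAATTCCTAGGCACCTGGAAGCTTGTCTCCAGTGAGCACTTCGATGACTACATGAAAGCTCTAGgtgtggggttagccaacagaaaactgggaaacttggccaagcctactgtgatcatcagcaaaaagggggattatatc

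The other members had exons of their own. Pmp22 is on chromosome 11 (63128982 to 63159547, plus strand), Mal on chromosome 2 (127633226 to 127656695, minus), Pmp2 on chromosome 3 (10179851 to 10183929, minus) and Cd9 on chromosome 6 (125460266 to 125494791, minus). The 250 bases before the start site (RefSeq, GRCm38.p6) are given for Pmp22, Mal and Cd9, the 3 members whose levels rose and fell together from cell to cell in the mSC-like class. They are shown for 2 of the 4 start sites of Pmp22, in the order of the gene, and for Mal and Cd9, with each CG pair in capitals. The Cd9 window is cut at its first exonic base.
Pmp22, chr11:63128732-63128981, plus strand: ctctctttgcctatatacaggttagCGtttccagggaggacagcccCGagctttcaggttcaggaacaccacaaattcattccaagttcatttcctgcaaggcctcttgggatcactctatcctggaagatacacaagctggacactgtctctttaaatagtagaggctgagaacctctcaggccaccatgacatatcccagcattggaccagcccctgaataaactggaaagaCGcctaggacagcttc
Pmp22, chr11:63131207-63131456, plus strand: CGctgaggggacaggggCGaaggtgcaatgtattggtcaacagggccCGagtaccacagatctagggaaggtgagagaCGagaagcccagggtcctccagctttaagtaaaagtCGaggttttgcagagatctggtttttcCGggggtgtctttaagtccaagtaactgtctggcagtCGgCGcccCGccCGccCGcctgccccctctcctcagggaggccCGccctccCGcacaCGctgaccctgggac
Mal, chr2:127656696-127656945, minus strand: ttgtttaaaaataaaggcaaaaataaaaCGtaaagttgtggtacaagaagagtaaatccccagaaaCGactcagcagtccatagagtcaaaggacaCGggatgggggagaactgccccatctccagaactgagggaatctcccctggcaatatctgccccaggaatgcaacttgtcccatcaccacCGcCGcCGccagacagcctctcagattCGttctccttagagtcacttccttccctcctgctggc
Cd9, chr6:125494792-125495010, minus strand: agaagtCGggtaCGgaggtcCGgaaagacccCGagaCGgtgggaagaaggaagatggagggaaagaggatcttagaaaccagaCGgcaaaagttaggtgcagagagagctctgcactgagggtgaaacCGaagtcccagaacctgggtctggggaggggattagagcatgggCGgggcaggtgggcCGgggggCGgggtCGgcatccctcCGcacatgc
The first Pmp22 window held 3 CG pairs and the second 14, so the start sites of this gene differ in base composition (48.8% and 61.2% G and C). Mal held 7 CG pairs in its 250 bases and Cd9 16 in the whole window, and the median of 32851 promoter windows of the same length was 6. Neither a TATA box (TATAAA), the core that SOX factors such as Sox10 bind (ACAANG) nor the core that EGR factors bind (GTGGGCG) was found on either strand of any of the 6 windows of these genes. Of all promoter windows 12.4%, 36.3% and 7.02% held these letters. The absence of a match says only that these letters are not in these windows.

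Pmp22, a tetraspan protein of the compact layers, took more reads of the mSC-like class than any other gene. There the 5 genes together took 8.86% of all reads in plate 1 and 9.79% in plate 2, and 1.38% and 1.69% among nm(R)SC-like cells. Pmp22 alone had 60994 CPM in the mSC-like sum of plate 1 and 56907 CPM in that of plate 2, which ranked first of all genes by CPM in both plates. Its levels in the nm(R)SC-like sums were 4807 and 4808 CPM, where it still ranked 12 and 15. Mbp had 13029 and 27052 CPM in mSC-like cells against 3548 and 5174 CPM, and ranked 18 and 9 in the nm(R)SC-like sums. Per exonic length Pmp22 ranked 2 in both mSC-like sums and 18 and 16 in the nm(R)SC-like ones, where Mbp ranked 112 and 72. The length used for Mbp joins the exons of all its transcripts, so its rank per length depends on that choice. Cd9 had 10232 and 9514 CPM against 4115 and 4914 CPM. Mal had 3771 and 4092 CPM against 1349 and 1982 CPM. Pmp2 had 596 and 365 CPM against 18.8 and 6.33 CPM. For each of the 5 genes both mSC-like sums were above both nm(R)SC-like sums, as they were for 15.4% of the 13191 genes tested. The sums of the classes did not overlap, in either direction, for 42.2% of all genes, and 2.77% of all genes were called by the test given further on.

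Levels of different genes can be compared per length only, as CPM per 1000 exonic bases. On that scale Pmp22 (25911 and 24174) led the 5 members in mSC-like cells of both plates, followed by Cd9 (5006 and 4655), Mbp (1538 and 3194), Mal (1358 and 1473) and Pmp2 (423 and 259). The gap between Mbp and Mal in plate 1 was smaller than the gap of Mbp between the plates, so these neighbours did not differ beyond their spread. Mbp (chromosome 18, 82475146 to 82585637, plus strand) was divided by 8469 bases, the exons of all its transcripts joined, those of the long Golli forms included, which lowers its value. Its place in these orders, also against Cd9, was not tested with a shorter length. In nm(R)SC-like cells Pmp22 (2042 and 2042) and Cd9 (2013 and 2404) did not differ beyond their spread, and neither did Mal (485 and 713.6) and Mbp (419 and 611). Pmp2 was last, at 13.4 and 4.50. The order of the members therefore differed between the classes, with Pmp22 ahead of Cd9 in mSC-like cells and level with it in nm(R)SC-like cells.

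**Figure D1:**
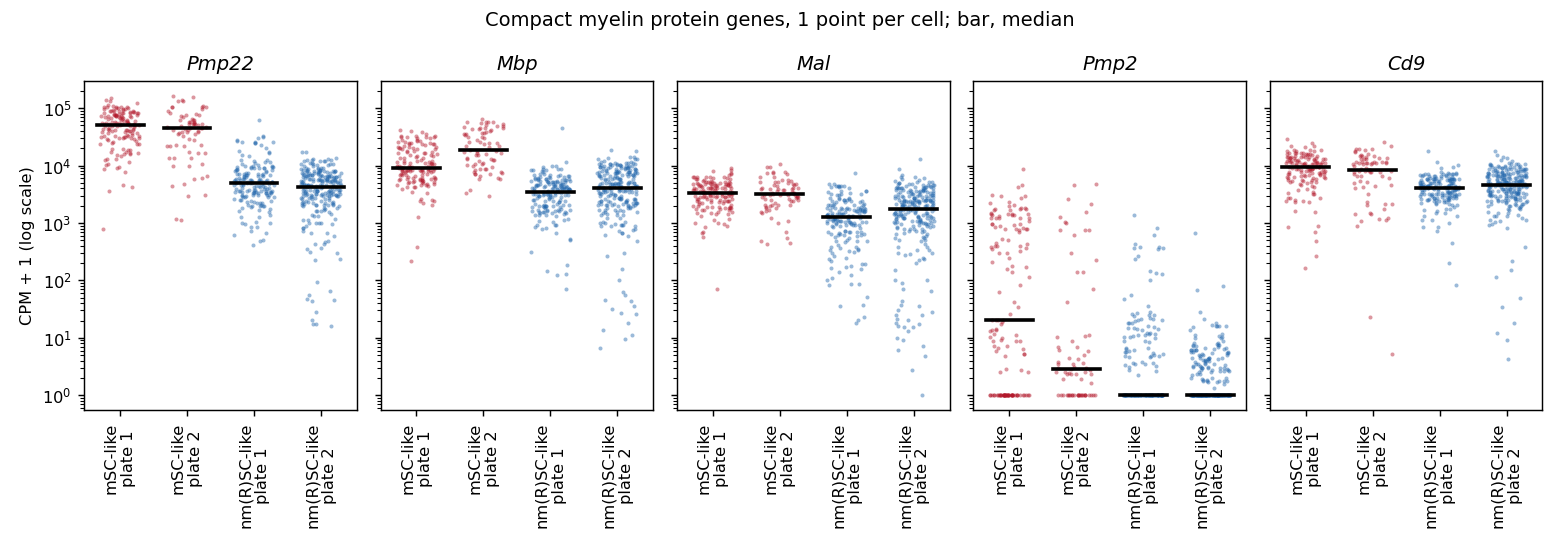
Level of each of the 5 genes in single cells, as CPM + 1 on a log axis, by class and plate, with 1 point per cell and a bar at the median. Each cell is shown at its own read depth. The medians of Pmp22 are 51883 and 45424 CPM in mSC-like cells against 4886 and 4192 CPM among nm(R)SC-like cells, whereas Pmp2 has a median of 0 among the latter and spreads over several powers of 10 in mSC-like cells.

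Single cells showed how far the classes overlap. In mSC-like cells Pmp22 had its lowest, median and highest values at 772, 51883 and 148204 CPM in plate 1 and at 1138, 45424 and 162783 CPM in plate 2. Among nm(R)SC-like cells they were 409, 4886 and 61513 CPM and 14.8, 4192 and 17195 CPM. The median Pmp22 level of mSC-like cells was 10.6 times that of nm(R)SC-like cells in plate 1 and 10.8 times in plate 2. Above the mSC-like median lay 1 of 176 nm(R)SC-like cells in plate 1 and 0 of 246 in plate 2, which allows a share of up to 1.22%, although Pmp22 was not used to build the classes. Mbp ran from 215 over 9217 to 41085 CPM in mSC-like cells of plate 1 and from 3003 over 18318 to 63727 CPM in those of plate 2, and its values among nm(R)SC-like cells were 69.9, 3441 and 44734 CPM and 5.63, 4125 and 18700 CPM. Its medians differed 2.68 and 4.44 times, and 5 and 1 nm(R)SC-like cells were above the mSC-like median. Cd9 (2.29 and 1.82 times) and Mal (2.67 and 1.79 times) overlapped more over pairs of 1 cell from each class. The mSC-like cell was higher in 83.2% and 70.7% of pairs for Cd9 and in 84.9% and 72.5% for Mal. For Mbp it was higher in 87.7% and 91.8%. Above the mSC-like median were 3 and 35 nm(R)SC-like cells for Cd9, fewer than for Mbp in plate 1, and 15 and 58 for Mal. In plate 2 this was 23.6% of the nm(R)SC-like cells for Mal. Within the mSC-like class the spread over cells was similar for Pmp22 (coefficient of variation, the SD over the mean, 0.579 and 0.764), Mbp (0.724 and 0.693), Mal (0.489 and 0.601) and Cd9 (0.543 and 0.645) and far wider for Pmp2 (1.85 and 2.84).

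To test whether the genes differ between the classes, counts were summed per plate and class and fitted over all 13191 genes that passed a filter on low counts (edgeR's quasi-likelihood test with plate as a block, Benjamini-Hochberg adjustment over all genes). All 5 genes passed the filter. Of all genes 2.77% were called at an adjusted p under 0.05, 1.46% as higher and 1.32% as lower in mSC-like cells, and the median log2 ratio was -0.13. Since the other genes helped to build the classes, the background was also taken with each of 2 random parts of the genes tested in classes built from the other part, which called 4.19%. Of the members 3 of 5 were called, all as higher. Pmp2 had the widest ratio, with 5.58 ± 0.47 on the log2 scale (SE, adjusted p = 0.00468), and Pmp22 followed with 3.78 ± 0.44 (adjusted p = 0.00965). Mbp rose by 2.30 ± 0.40 (adjusted p = 0.0322). Mal (1.43 ± 0.36, adjusted p = 0.109) and Cd9 (1.30 ± 0.37, adjusted p = 0.158) did not pass. The calls depended on how the spread is modelled. Without the plate block Pmp2 alone was called (0.963% of all genes were called as higher) and Pmp22 had an adjusted p of 0.0529, and DESeq2 on the same sums called all 5 members as higher (5.85% of all genes). With 2 plates the fit has 1 residual degree of freedom and rests on a spread shared across genes.

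Pmp2 differed from the other members in how its reads lay over cells. At an equal depth of 100000 reads per cell (shallower cells left out), 43 of 97 mSC-like cells of plate 1 had 5 or more Pmp2 reads (44.3%, with an exact 95% binomial interval of 34.2% to 54.8%). In plate 2 they were 16 of 73 (21.9%, from 13.1% to 33.1%). Among nm(R)SC-like cells 5 of 114 (4.39%, from 1.44% to 9.94%) and 1 of 239 (0.418%, from 0.0106% to 2.31%) reached 5 reads. Pmp2 was thus read in part of the mSC-like cells, and the same limit was reached by each of the 97 mSC-like cells of plate 1 for the 4 other genes and by 71 or more of the 73 of plate 2. No cell lay between 5 and 10 reads, so a limit of 10 reads gave the same counts in both classes and plates. The intervals cover counting error only.

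A single Pmp2 read said little. Without thinning, 68.2% and 66.2% of the mSC-like cells had 1 or more reads, at median depths of 153928 and 664593 reads, but so had 44.9% and 43.1% of the nm(R)SC-like cells, at 159904 and 435718 reads. Reads can move between wells that share an index during sequencing. In plate 1, where the column names give the index names, a well that shared an index with a source cell held a median of 0.0353% or 0.0384% as many reads of 5 genes read almost only in that cell, and subtraction of such reads lowered the nm(R)SC-like share to 27.3% and left the counts of cells at 5 reads as they were. The other members had a read in every cell of both classes of plate 1 before subtraction, and lost cells too. Pmp22 kept a read in 142 of 148 cells (mSC-like) and 168 of 176 (nm(R)SC-like). By class in the same order, Mbp kept a read in 142 and 166 cells, Mal in 140 and 157, and Cd9 in 139 and 161. Unlike those of Pmp2, their counts at 5 reads fell as well. Exchange was not tested in plate 2.

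The Pmp2 reads were held by few cells. The 10 highest mSC-like cells held 49.7% of the Pmp2 reads of that class in plate 1 and 92.0% in plate 2, and the highest cell alone 15.5% and 33.26%. In the nm(R)SC-like class of plate 2, 1 of 246 cells held 82.8% of them. With the highest cell of each class left out (an alternative added after seeing the data), Pmp2 had 509 against 12.5 CPM in plate 1 and 250 against 1.10 CPM in plate 2. The single-plate log2 ratio of CPM + 1 then moved from 4.91 to 5.24 and from 5.64 to 6.90, so the difference between the classes was as large without these cells. In mSC-like cells with 5 or more Pmp2 reads at equal depth the median Pmp22 was 6754 against 5657 reads in plate 1 and 5494.5 against 4608 in plate 2, those with none coming second. The median Mal was 353 against 354 and 363 against 324 reads. Cd9 was 978 against 1085.5 and 830 against 982 reads, and Mbp 1064 against 886.5 and 1471.5 against 1752 reads. Which of the 2 sets of cells was higher thus differed between members. The sets of plate 2 also differed in Mfap5, a gene described further on. There 43.75% of the cells with 5 or more Pmp2 reads were Mfap5-positive, against 23.4% of those with none. In plate 1 the share was 60.5% in both sets. The part of Mfap5 in these values was not tested.

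**Figure D2:**
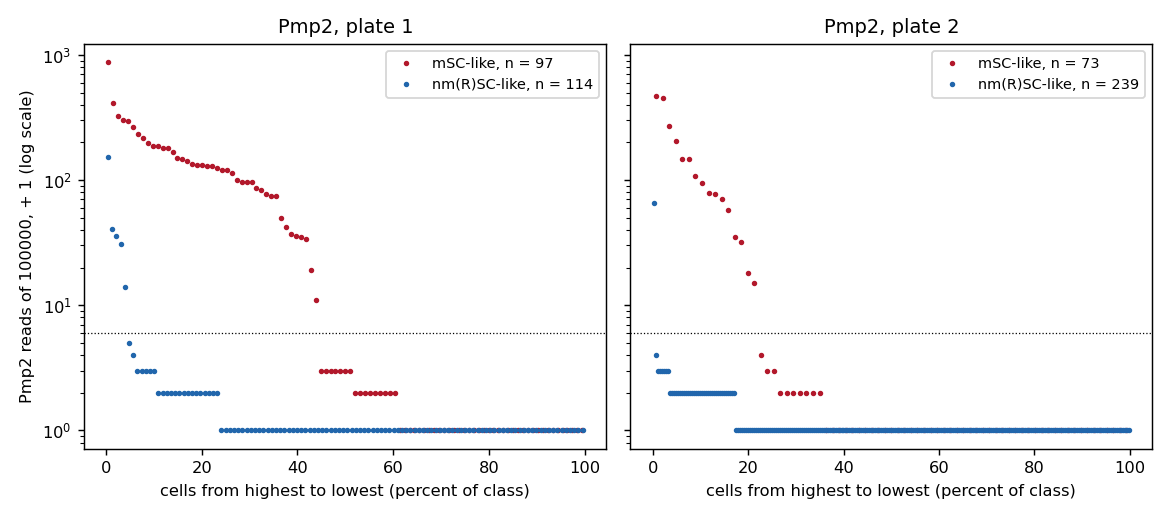
Pmp2 reads of single cells thinned to 100000 reads (+ 1, log axis), cells ranked from highest to lowest within each class and plotted by their rank as a percent of the class; the dotted line is at 5 reads. Of the mSC-like cells 44.3% in plate 1 and 21.9% in plate 2 reach the line, against 4.39% and 0.418% of nm(R)SC-like cells; red points at 0 reads lie behind the blue ones.

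The relatives of the 5 genes were taken from a list of other compact myelin proteins and of the paralog families of the members. Of the 27 on the list 20 passed the filter, 4 were called as higher and 2 as lower in mSC-like cells, where 2.77% of all genes were called, and their median log2 ratio was -0.05. Pllp (plasmolipin), which shares the MARVEL domain with Mal, rose by 5.21 ± 0.56 (adjusted p = 0.00789), from 162 to 2962 CPM in plate 1 and from 67.1 to 3993 CPM in plate 2. No nm(R)SC-like cell lay above its mSC-like median. The ratio of Mal itself was 1.43, and the difference between the 2 genes was not tested. Gpm6a, a membrane glycoprotein, rose by 5.08 ± 0.59 (adjusted p = 0.00953) and Mpzl1, a membrane protein of the immunoglobulin superfamily, by 4.21 ± 0.62 (adjusted p = 0.0199). Both were read in part of the class. At equal depth 28 of 97 and 15 of 73 mSC-like cells had 5 or more Gpm6a reads, and 29 and 31 had as many of Mpzl1.

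Of the paralogs of Pmp22, Emp3 and Emp1 were lower in mSC-like cells. Emp3 fell by 4.31 on the log2 scale (SE 0.40, adjusted p = 0.00587), from 643 and 431 CPM among nm(R)SC-like cells to 30.0 and 18.6 CPM in mSC-like cells. Emp1 fell by 7.35 (SE 1.25, adjusted p = 0.0293), from 292 and 279 CPM to 6.997 and 0.270 CPM. Emp2 was at 754 and 519 CPM in mSC-like and 715.5 and 709 CPM among nm(R)SC-like cells and had a log2 ratio of -0.02 ± 0.36 (adjusted p = 0.999) whose sign turned with RLE scaling. The genes of this family thus differed in direction, with Pmp22 higher in mSC-like and Emp1 and Emp3 higher in nm(R)SC-like cells.

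Of the fatty-acid-binding relatives of Pmp2, Fabp7 and Fabp5 were tested and did not pass. Fabp7, which marks immature SCs, was at 25.1 and 15.1 CPM in nm(R)SC-like and 0.260 and 0.126 CPM in mSC-like cells (-6.57 ± 1.82, adjusted p = 0.143). Fabp5 was at 407 and 168 against 159 and 125 CPM (-0.72 ± 0.40, adjusted p = 0.556), and Fabp3 and Fabp4 had 0.206 CPM or less in each sum. The tetraspanin relatives of Cd9 did not pass either: Cd82 (1.16 ± 0.38, adjusted p = 0.234), Cd151 (0.89 ± 0.38, adjusted p = 0.389), Cd81 (-0.07 ± 0.35, adjusted p = 0.989), Cd63 (-0.63 ± 0.38, adjusted p = 0.605) and Tspan2 (-5.75 ± 2.04, adjusted p = 0.277). Tspan2 was at 26.6 and 2.57 CPM in nm(R)SC-like and 0.488 and 0.0361 CPM in mSC-like cells. Gpm6b (-0.65 ± 0.35, adjusted p = 0.534) and the 3 Cmtm genes of the MARVEL family did not pass either. Mall, Mal2 and Mog had no read in any sum.

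**Figure D3:**
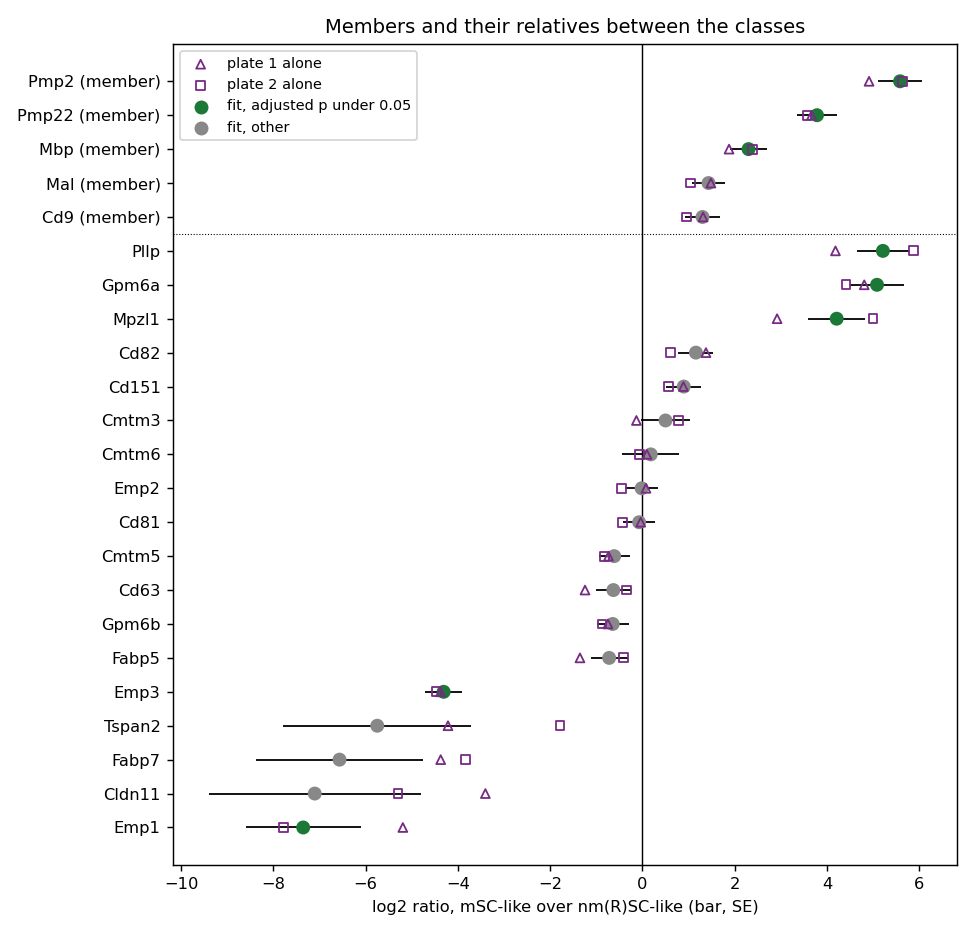
Log2 ratio of mSC-like over nm(R)SC-like cells for the 5 members (above the dotted line) and 18 of their 20 tested relatives, from the fit over 4 sums with its SE (filled circles, green where the adjusted p is under 0.05) and from each plate alone as CPM + 1 (open triangles and squares). Pmp2, Pmp22 and Mbp are called as higher, with Pllp, Gpm6a and Mpzl1, and Emp3 and Emp1 as lower.

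Within the mSC-like class Pmp22 and Mbp went in opposite directions between cells with and without Mfap5. This gene, which encodes a protein of extracellular microfibrils, reached 50 CPM in 90 of 148 cells of plate 1 and 19 of 74 of plate 2, and these cells were compared with the rest of the class within each plate. Pmp22 had 79403 CPM in Mfap5-positive against 31756 CPM in Mfap5-negative cells in plate 1, and 113614 against 37559 CPM in plate 2, where it took 11.4% of the reads. Mbp went the other way, with 9209 against 19096 CPM in plate 1 and 10939 against 32550 CPM in plate 2. Cd9 was at 12440 against 6723 and 13504 against 8153 CPM, and Mal at 4562 against 2516 and 5728 against 3533 CPM. For each of these 4 genes the sums of the 2 sets of cells did not overlap, which held for 36.7% of the 11341 genes tested, in either direction. Pmp2 was at 594 against 599 CPM in plate 1 and 739 against 237 CPM in plate 2, with no shared direction, and 1 of the 19 Mfap5-positive cells of plate 2 held 64.6% of their Pmp2 reads.

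In the fit over these genes, which called 0.335% of them, Pmp22 was the only member called, higher by 1.62 ± 0.20 on the log2 scale in Mfap5-positive cells (adjusted p = 0.0188), where the median log2 ratio of all genes was -0.24. Mbp had a ratio of -1.16 ± 0.21 and missed the threshold (adjusted p = 0.0682), as did Cd9 (0.96 ± 0.22, adjusted p = 0.126), Mal (0.93 ± 0.24, adjusted p = 0.213) and Pmp2 (0.97 ± 0.49, adjusted p = 0.818). Mbp was called as lower with a limit of 10 CPM for Mfap5 (adjusted p = 0.0401, 2.02% of all genes called), with 200 CPM (adjusted p = 0.0478, 0.511% called) and with cells thinned to equal depth before summing (adjusted p = 0.00927, 1.05% called), where Cd9 was called as higher too (adjusted p = 0.0294). Without the plate block edgeR called 0 of 11341 genes (0.0%; 708 had an unadjusted p under 0.05), with Pmp22 at an adjusted p of 0.711, whereas DESeq2 with the block called 759 genes and of the members Pmp22 (adjusted p = 0.000825). The direction of each member other than Pmp2 was the same in both plates.

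The ratio of Pmp22 to Mbp within a cell needs no scaling between cells. At equal depth the median log2 ratio of Pmp22 over Mbp reads (each + 1) was 3.27 (quartiles 2.89 and 3.87) over 59 Mfap5-positive cells of plate 1 and 3.23 (2.79 and 3.93) over 19 of plate 2. In Mfap5-negative cells it was 0.75 (0.12 and 1.23, 38 cells) and 0.08 (-0.22 and 0.36, 54 cells). Pmp22 had more reads than Mbp in 59 of 59 and 18 of 19 Mfap5-positive cells, and in 31 of 38 and 33 of 54 Mfap5-negative cells. In nm(R)SC-like cells the median was 0.38 (114 cells) and -0.08 (239 cells), near that of Mfap5-negative cells although both genes were much lower there. The quartiles of Mfap5-positive cells lay above those of both other groups in each plate. With 2 plates as the replicates, no exact test over plates can reach 0.05.

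**Figure D4:**
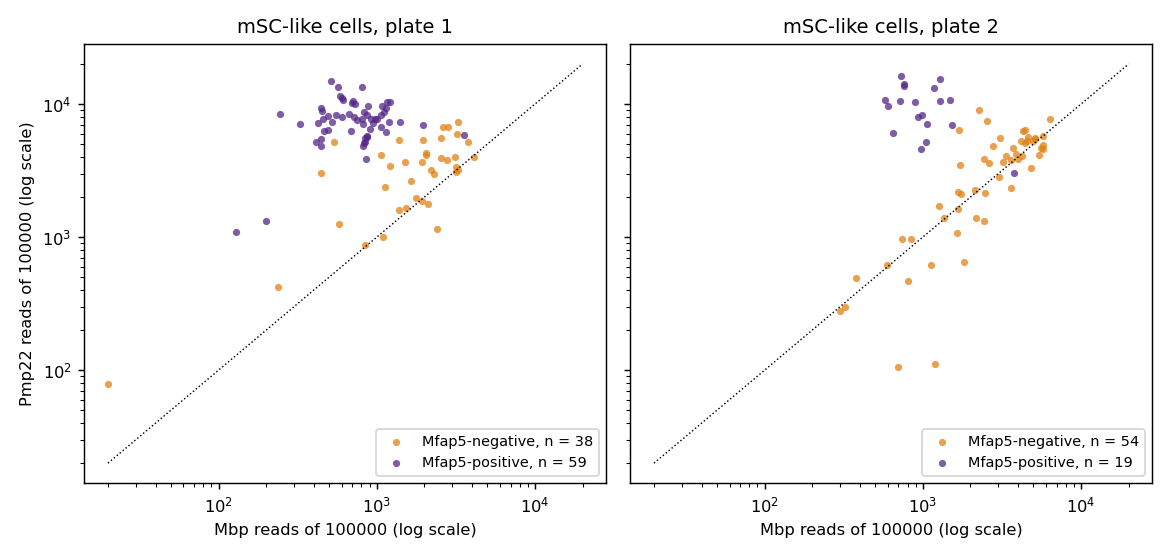
Pmp22 against Mbp reads in single mSC-like cells thinned to 100000 reads, both on log axes, by plate; orange, Mfap5-negative, violet, Mfap5-positive, dotted line, equal numbers of reads. Of the Mfap5-negative cells 31 of 38 lie above the line in plate 1 (median log2 ratio 0.75) and 33 of 54 in plate 2 (0.08). Mfap5-positive cells mostly lie further above it, with medians of 3.27 and 3.23.

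The cell-to-cell correlation of the members is given as Spearman's rho at equal depth, as a description only, since cells of a plate share their libraries and mice. Over all mSC-like cells (97 and 73), Pmp22 went with Cd9 (rho 0.57 in plate 1 and 0.74 in plate 2) and with Mal (0.54 and 0.51), and Mal with Cd9 (0.51 and 0.46). Mbp stood outside this group of 3, with -0.29 and 0.07 against Pmp22, -0.16 and 0.05 against Mal and -0.11 and 0.14 against Cd9. Yet among Mfap5-negative cells alone (38 and 54) Mbp rose and fell with Pmp22 (0.52 and 0.78), Cd9 (0.47 and 0.59) and Mal (0.58 and 0.39), and the 6 pairs of these 4 genes had a rho of 0.39 to 0.78 in both plates. Among Mfap5-positive cells (59 and 19) no pair of the 4 genes exceeded 0.32, and Pmp22 with Mbp was at 0.06 and -0.23. By rank, Pmp22 and Mbp thus went together among Mfap5-negative cells and not over the whole class. As Pearson's r of log2 reads, Mbp with Pmp22 was weakly positive over the whole class, at 0.18 and 0.30. Mbp with Cd9 was then at 0.23 and 0.19, and with Mal at 0.21 and 0.0058. Mfap5 reads themselves had a rho of 0.66 and 0.66 with Pmp22 and of -0.56 and -0.52 with Mbp.

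Pmp2 went with none of the others in mSC-like cells, with rho between -0.15 and 0.17 over the 4 pairs and both plates. In nm(R)SC-like cells the plates differed. In plate 1 (114 cells) Pmp22 went with Mbp (0.49), Mal (0.45) and Cd9 (0.39), and in plate 2 (239 cells) the same pairs were at 0.02, 0.11 and 0.10. For Pmp22 with Mal this gap was absent among cells with 2500 or more genes (0.45 over 124 and 0.43 over 69 cells), whereas Pmp22 with Mbp was at 0.49 and 0.11 and with Cd9 at 0.41 and 0.05. Over both classes of a plate all 6 pairs of the 4 abundant genes were positive (0.48 to 0.77 in plate 1, 0.24 to 0.44 in plate 2), values that the difference between the classes enters. At equal depth the rho of each gene of the 4 with the original read number of the cell was between 0.01 and 0.22 in mSC-like cells.

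**Figure D5:**
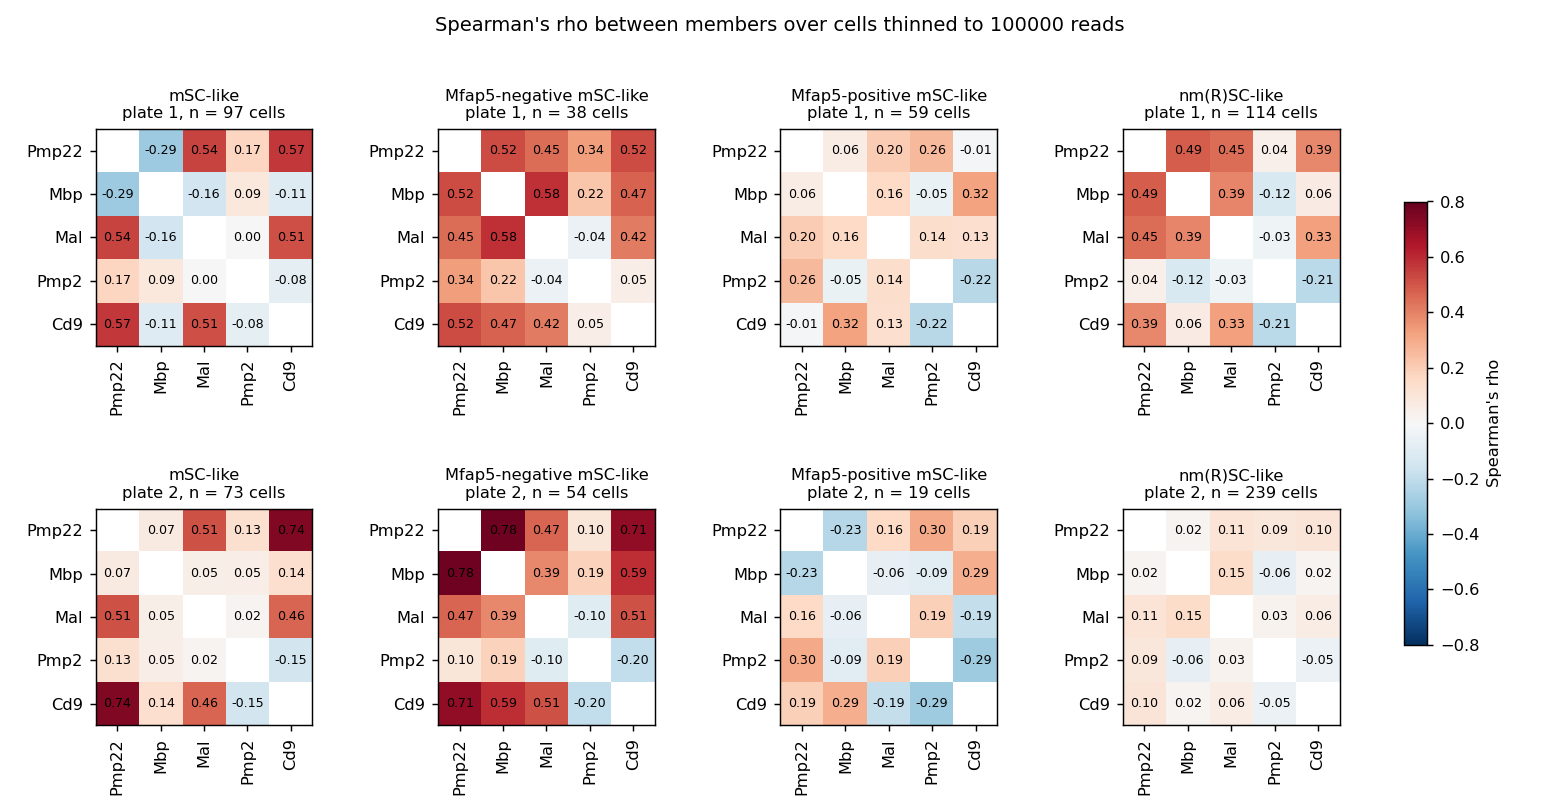
Spearman's rho between the 5 genes over single cells thinned to 100000 reads, for plate 1 (upper row) and plate 2 (lower row), in all mSC-like cells, in their Mfap5-negative and Mfap5-positive parts and in nm(R)SC-like cells, red for positive and blue for negative values. Pmp22 and Mbp are at -0.29 and 0.07 over all mSC-like cells and at 0.52 and 0.78 over the Mfap5-negative ones.

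Genes with levels most like each member in mSC-like cells were sought among the 774 further genes (775 for Pmp2) with a read in at least 50% of the thinned mSC-like cells in both plates. For Pmp22 they included Ogn, a small proteoglycan that leads the same cluster as Mfap5 (mean rho of the plates 0.69), and Cd9 (0.65). Mal stood at 9 of 774 in that order, and Mbp far down, with a mean rho of -0.11. For Mbp they were Cnp, an enzyme of myelinating glia (0.65), Plekhb1 (0.57) and Ybx1, an RNA-binding protein (0.56). Pmp22 stood at 708 of 774 in that order. For Mal they were Pmp22 (0.53), Cd9 (0.49) and Fam178b (0.47), and for Cd9 they included Pmp22 (0.65) and Fam178b (0.58). Pmp2 had no close gene: among its first were the collagen gene Col1a1 (0.36) and Dst (0.29). The median rho over all genes was between -0.04 and 0.09 for the 5 members.

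Over the cells of both classes other genes led. Those most like Pmp22 included Ncmap (0.68) and Fa2h, which makes hydroxylated myelin lipids (0.66). Those most like Mal included Pmp22 (0.55) and Fa2h (0.47). Mbp was most like Ncmap (0.59), the claudin Cldn19 (0.57) and Prx (0.57), Pmp2 most like Fa2h (0.34), Cldn19 (0.33) and Ncmap (0.33), and Cd9 most like Pmp22 (0.56), Mt3 (0.55) and Slc36a2 (0.52). Of these Prx, Ncmap, Cldn19 and Fa2h were among the markers that named the class, so the class difference itself enters these values.

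Clusters, built without the members, gave values like those of the split by Mfap5, which was among the genes clustered. The mSC-like cluster led by Mfap5 and Ogn (87 and 19 cells) had a median Pmp22 level of 71588 and 103623 CPM and a median Mbp level of 7668 and 9869 CPM. The other mSC-like cluster (61 and 55 cells), led by Emid1, Ncmap and Pllp, had 32927 and 36010 CPM of Pmp22 and 20125 and 27871 CPM of Mbp. Among the nm(R)SC-like clusters the one led by Ednrb (58 and 51 cells) had the lowest medians of Pmp22 (3191 and 2840 CPM), Mal (659 and 899 CPM) and Cd9 (2944 and 3535 CPM) in both plates. The medians of the other 4 nm(R)SC-like clusters lay between 3823 and 6006 CPM for Pmp22. The unnamed cluster had 2737 and 3238 CPM of Pmp22 in its 2 sums, and its cells were shallow in plate 2, where 1 of 14 had 100000 reads.

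Among nm(R)SC-like cells Aldh1a1, an enzyme of retinoic acid synthesis, reached 50 CPM in 107 cells of plate 1 and 126 of plate 2. Of the 12625 genes tested between these and the remaining cells 1 was called (0.00792%), and no member was. Pmp22 was at 5714 against 3713 CPM in plate 1 and 5221 against 4251 CPM in plate 2 (log2 ratio 0.55 ± 0.22, adjusted p = 0.695), and Mal at 1659 against 974 and 2134 against 1779 CPM (0.61 ± 0.26, adjusted p = 0.727). Mbp had 0.47 ± 0.22 (adjusted p = 0.780), Cd9 0.21 ± 0.22 (adjusted p = 1) and Pmp2 -2.66 ± 1.62 (adjusted p = 0.895), where 1 of the 120 Aldh1a1-negative cells of plate 2 held 90.1% of their Pmp2 reads. At an unadjusted p under 0.05 were Pmp22 (0.0272) and Mal (0.0351), as were 6.63% of all genes, and DESeq2, which called 3.52% of all genes, called no member either.

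The plates differed for single members. Over whole classes Pmp22 had a log2 ratio of plate 2 over plate 1 of -0.10 in mSC-like and 0.00 among nm(R)SC-like cells. These were the lowest in size of the 5 members and smaller in size than that of 92.5% of 8263 and 99.99% of 8796 genes at 10 CPM or more. In mSC-like cells Cd9 (-0.10) and Mal (0.12) were close to Pmp22, and among nm(R)SC-like cells they were at 0.26 and 0.56. Mbp was higher in plate 2, by 1.05 and 0.54, and Pmp2 lower, with -0.70 and -1.44. Mfap5-positive cells were 60.8% of the mSC-like cells in plate 1 and 25.7% in plate 2, and the part of this in the plate differences was not tested. Within the Mfap5-positive part the log2 ratio of plate 2 over plate 1 was 0.52 for Pmp22, the highest of the 5, 0.33 for Mal, 0.32 for Pmp2, 0.25 for Mbp and 0.12 for Cd9. Within the Mfap5-negative part it was 0.24 for Pmp22, 0.77 for Mbp, 0.49 for Mal, 0.28 for Cd9 and -1.33 for Pmp2. Pmp22 was thus higher in plate 2 within both parts, although not over the class.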

How the data were processed

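The deposited values are whole-number read counts, not normalised and without molecular identifiers, in a table with 1 column for each well. Per the labels, bcl2fastq, STAR (2.6.1c), featureCounts and the build GRCm38.p5 were used; the strand setting and the handling of reads shared by genes are not given in the sources used here. Symbols and exon lengths came from GENCODE M21, which held 25587 of the 25700 identifiers. Sequences came from that annotation and from RefSeq windows.

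Cells with 1500 or more genes were kept and clustered in Seurat (5.3.0, R 4.3.3; 12 integration dimensions, resolution 0.5) without the 5 members, 27 relatives and Gm37389, the last held out after its shared reads were seen. Wells hold sorted single cells, and no doublet caller was run. Counts were summed per plate and class and tested with edgeR (4.0.16, quasi-likelihood, TMM, minimum count 10) with plate as a block, since both classes of a plate come from the same pool of mice, and DESeq2 (1.42.0) was an alternative. For detection and correlation each cell was thinned to 100000 reads. Intervals (95%) and limits from 3 counts cover counting error only, since reads are not molecules. Cells of a plate are not independent. The p-values of the blocked fits rest on how far the difference between groups varies over 2 plates and on a spread shared across genes.

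The members, the lists and the limits were chosen with earlier results of these data known. Genes named beside the members were the relatives past the test with defining ones that missed it, and the 3 genes with the highest mean rank correlation with each member. Some genes that this rule names are not reported here. Leaving out the highest Pmp2 cell was added after seeing the data.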

Additional observations from a re-analysis of the deposited data

Results flagged for a closer look

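The cells that entered no comparison also held member reads. In plate 1, 44 cells with fewer than 1500 detected genes had a median of 2130.5 reads, and their sum held 21436 CPM of Pmp22 and 9317 CPM of Mbp. In plate 2, 50 such cells had a median of 2450.5 reads, and their sum held 3043 CPM of Pmp22 and 53586 CPM of Mbp, of which 1 cell gave 55.1% of the Pmp22 reads and another cell 87.8% of the Mbp reads. Each of these 94 cells had a Pmp22 read. Reads exchanged between wells were not subtracted here, and their part in the values of such shallow cells was not tested.

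In the unnamed cluster, 1 cell of plate 2 had 5448 of its 11123 reads in Mbp (49.0%), with 1545 detected genes. The 13 other cells of that cluster in plate 2 held 889 CPM of Mbp in sum, and the 16 of plate 1 held 1125 CPM. These values were not tested against any class.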

How the results depend on the processing

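The log2 ratio of each member between the classes kept its direction in all 13 alternatives and in each plate alone. Of these values 65 were counted as the same. For an alternative this meant the same side of the threshold, and for a single plate a value near the first. Of the rest, 6 single-plate values lay further away, 2 alternatives gained a call and 2 lost one. Pmp2 ranged from 4.49 to 5.92, Pmp22 from 3.69 to 4.06, Mbp from 2.24 to 2.46, Mal from 1.32 to 1.64 and Cd9 from 1.24 to 1.46. DESeq2 called 5 members, 10 relatives and 1775 of all 13191 genes, and without the replicate block edgeR called 1 member and 273 of all 13191 genes. The count over all genes (366) was 632 with thinned cells, 557 and 576 with classes from either random part of the genes, and 601 and 186 with minima of 1000 and 2500 genes per cell.

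Between Mfap5-positive and Mfap5-negative cells 3 members were called with thinned cells (1.05% of all genes), 2 at 10 CPM (2.02%) and 2 at 200 CPM (0.511%). Without the replicate block 0 members and 0 of 11341 genes were called. The blocked and the unblocked fit called the same number of members, 0, for Aldh1a1. With a minimum of 1 read, Pmp2 was found in 60.8% and 35.6% of the cells called mSC-like and in 23.7% and 17.2% of the nm(R)SC-like ones, and at the minimum of 5 reads, with 2500 genes per cell, in 35.9% of mSC-like cells of plate 2 (21.9% before). As Pearson's r of log2 reads, Pmp22 with Mbp in mSC-like cells was at 0.18 in plate 1, a change of sign, and at 0.30 in plate 2. With 2500 genes per cell the rho of this pair changed sign in plate 2 (-0.0069). Pmp22 with Cd9 was at 0.74 and 0.57 as Pearson's r. Log2 ratios of relatives near 0 changed sign: Cmtm6 with 2500 genes per cell (-0.15), Cd81 with one part of the genes (0.023), 1000 (0.057) and 2500 genes (0.043), and Emp2 with DESeq2 (0.029), RLE (0.029), thinned cells (0.0021), 1000 (0.013) and 2500 genes (0.072) and no integration (0.020). The cause was not tested. Depth limits Pmp2 most: a cell without a read among 100000 may hold the message.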
